A study of Mus musculus with 26 samples.

Results

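Heparan sulfate is a long sugar chain carried by a small number of core proteins at the cell surface and in the matrix, and 34 genes for these core proteins and for the enzymes that build and edit the chain are described here. They were chosen by gene symbol from the 41442 gene rows of each count table, and all 34 were found in both tables. They comprise 6 glypicans, 4 syndecans, the 2 secreted core proteins Hspg2 and Agrn, 5 chain elongation genes, 4 N-deacetylase/N-sulfotransferases, the epimerase Glce, the 2-O-sulfotransferase Hs2st1, 3 6-O-sulfotransferases, 6 3-O-sulfotransferases and 2 extracellular sulfatases. The study sorted fluorescent mesenchymal cells from the reproductive tract of mouse embryos. The mesonephros contains the Wolffian duct, the precursor of the male tract, and the Müllerian duct, the precursor of the female tract. Gli1+ cells of the mesonephros, marked by Gli1-CreER; Rosa-Tomato, were taken from females and males at E14.5 and at E16.5, with 3 RNA-seq libraries for each of the 4 groups. Gli1+ cells marked with those same alleles and Amhr2+ cells, marked by Amhr2-Cre; Rosa-Tomato, were taken from the female uterus at E19.5, labelled neonatal, with 3 libraries each. The labels give 1 mg of tamoxifen per dam at E12.5 and E13.5 for both lines, so the Gli1+ libraries hold cells in which the Gli1 promoter drove the inducible Cre around those days, together with their descendants, while Amhr2-Cre marks cells by an Amhr2-driven Cre whose name gives no inducible form. No label says whether a library came from 1 embryo or from pooled embryos, so p-values measure the spread between these libraries, which may be technical.

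Glypicans are tied to the membrane by a lipid anchor and syndecans span it. Chain polymerisation by the EXT proteins is followed by replacement of N-acetyl by N-sulfate groups (NDST enzymes), epimerisation, and sulfation at the 2-O, 6-O and 3-O positions, after which SULF1 and SULF2 remove 6-O-sulfates outside the cell. The pattern of sulfates sets which growth factors bind, among them FGFs, Wnts, BMPs and hedgehog proteins, which also carry signals between mesenchyme and epithelium of the reproductive ducts.

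The 12 fetal libraries held 23382983 to 64602477 counts each and the 6 uterine libraries 28709191 to 37541045. A count of 0 allows up to 3 counts, which is 0.0485 to 0.126 CPM in the fetal and 0.0778 to 0.102 CPM in the uterine libraries, for counting error only. Here CPM is the depth-scaled read count, on the library size after TMM scaling. Xist measured at least 3162 CPM in each female fetal library and at most 16.2 CPM in male libraries. That highest male value belonged to E14.5 male replicate 3, while E14.5 female replicate 3 held the Y-linked gene Ddx3y at 2.17 CPM. In the uterus Amhr2 measured 11.1 ± 4.31 CPM in Amhr2+ and 4.10 ± 0.997 CPM in Gli1+ cells (SD, n = 3), and Gli1 measured 10.5 ± 2.63 against 17.9 ± 2.85 CPM. In the fetal libraries Gli1, whose promoter drives the label, was at 184 ± 0.295 CPM in the E14.5 female group and at 228 ± 17.0 CPM in the E14.5 male group. At E16.5 its level was 50.7 ± 2.88 CPM in females, under every male library, and 208 ± 13.3 CPM in males. The 8 mesenchyme markers summed to at least 27089 CPM in each library, against at most 73.7 CPM for 8 epithelial and at most 128 CPM for 8 endothelial markers. Markers of red blood cells summed to 914 CPM in E14.5 female replicate 3 and to at most 55.8 CPM in the other 11 fetal libraries. In bulk libraries such as these, fewer cells of a type and less RNA per cell cannot be told apart.

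Gpc3, a glypican that restrains growth, stood far above the other members in the fetal mesenchyme. Divided by the summed exon length, which allows comparison between genes, its level ranged from 239.6 ± 6.97 CPM per kb in E16.5 females to 389 ± 4.67 CPM per kb in E14.5 females (SD, n = 3). It took 77.7% ± 0.244 to 84.3% ± 0.706 of the summed glypican level in the fetal groups, and 48.9% ± 3.36 and 49.98% ± 2.13 in Amhr2+ and Gli1+ uterine cells. The 2 tables were made with different kits and normalized separately, so this difference between them was not tested. Perlecan (Hspg2) and agrin (Agrn), large basement membrane proteins, measured 43.8 to 57.3 and 57.2 to 68.3 CPM per kb across fetal groups. The 2 sulfatases together reached 99.7 ± 0.870 CPM per kb in E14.5 females and 129 ± 8.70 CPM per kb in E14.5 males. Sulf2 made up 59.4% to 69.9% of that sum across the 6 groups. The summed 3-O-sulfotransferases of the member list were low throughout, at 3.78 ± 0.433 CPM per kb in Gli1+ uterine cells and 12.3 ± 3.53 CPM per kb in Amhr2+ uterine cells.

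A total of 2 members were too low to test in either table. Gpc5 had 0 to 7 counts per library and Hs3st2 had 0 to 3 counts, with 0 counts in all 6 uterine libraries. The other 32 passed the filter on low counts in both tables.

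**Figure D1:**
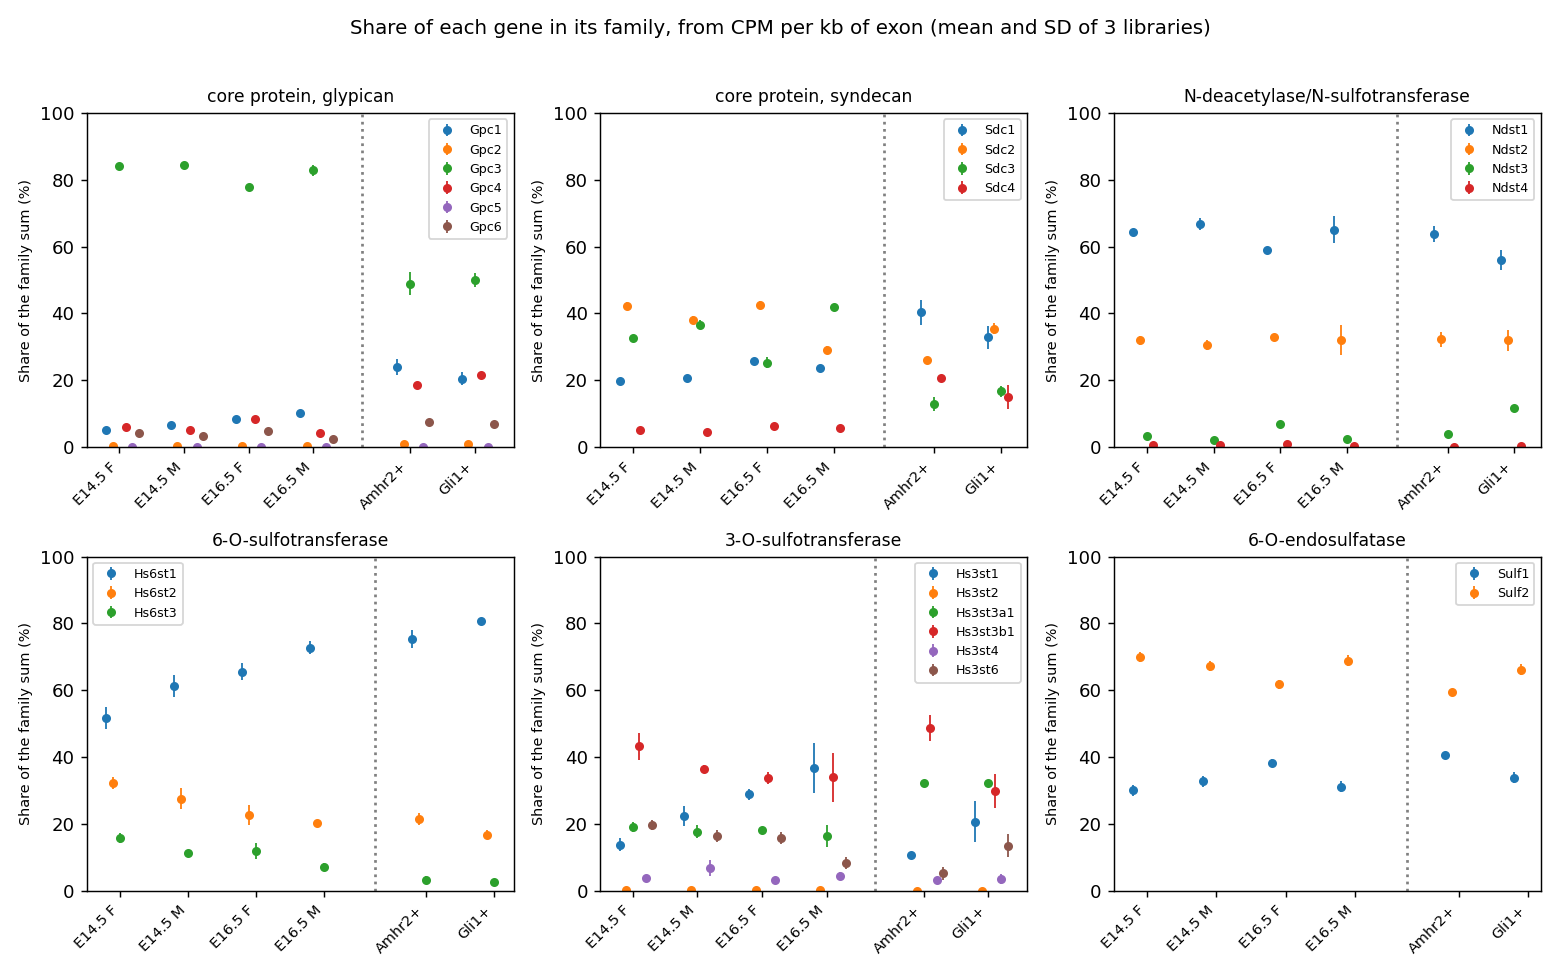
Share of each gene (percent, vertical axis) in the summed CPM per kb of exon of its family, for the 4 fetal groups and, right of the dotted line, the 2 uterine groups. Points are means and bars SDs of 3 libraries. Gpc3 fills most of the glypican level in fetal cells, Ndst3 reaches 6.99% ± 0.990 in E16.5 females and 11.7% ± 0.904 in uterine Gli1+ cells, and Hs3st3b1 reaches 48.6% ± 3.87 in uterine Amhr2+ cells.

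Several members lie near a relative in the genome (mm10 coordinates). Ndst3 (chromosome 3, 123526168 to 123690853) and Ndst4 (125404076 to 125728899) are 1713 kb apart. Hs3st3b1 (chromosome 11, 63885792 to 63922290) and Hs3st3a1 (64435332 to 64522841) are 513 kb apart. Gpc4 and Gpc3 are separated by 107 kb on chromosome X, with Hs6st2 another 371 kb before Gpc4, and Gpc5 and Gpc6 by 400.2 kb on chromosome 14. The counting strand is not stated, and Gpc1, Gpc2, Gpc3, Gpc5, Gpc6, Sdc3, Hspg2, Ext2, Ndst3, Glce, Hs2st1, Hs6st1, Hs6st3, Hs3st2, Hs3st3a1, Hs3st4 and Sulf2 each overlap at least 1 other annotated gene, in part a microRNA, so their counts may include its reads.

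The paired genes Hs3st3a1 and Hs3st3b1 are shown in sequence because both were called between the uterine populations, in the same direction, and because reads in their common part cannot be assigned to either. Only the longest identical run of their GENCODE vM21 transcripts (GRCm38) was located, which is 401 bases. It lies at coding positions 673 to 1073 of 1179 in Hs3st3a1 and 667 to 1067 of 1170 in Hs3st3b1. Its first 120 bases, identical in both and therefore all in capitals, are given here.
Hs3st3a1 and Hs3st3b1: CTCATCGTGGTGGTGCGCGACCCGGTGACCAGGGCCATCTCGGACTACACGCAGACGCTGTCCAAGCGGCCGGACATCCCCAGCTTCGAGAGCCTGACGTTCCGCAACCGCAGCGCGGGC
Of all 50-base words, 10.7% of those in Hs3st3a1 and 8.56% of those in Hs3st3b1 occur in the other gene, so the split of counts between them is uncertain. Ndst3 and Ndst4 share 7 such words and Hs6st2 and Hs6st3 share 3.

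The promoter windows of these genes and of Hs3st4, from 250 bases before to 50 after the RefSeq start (GRCm38.p6), are shown to compare where open chromatin was called. Capitals mark bases inside a peak of the authors' single ATAC-seq peak list, which covers the 8 fetal Gli1+ samples together.
Hs3st3a1, chr11:64435082-64435381, plus strand: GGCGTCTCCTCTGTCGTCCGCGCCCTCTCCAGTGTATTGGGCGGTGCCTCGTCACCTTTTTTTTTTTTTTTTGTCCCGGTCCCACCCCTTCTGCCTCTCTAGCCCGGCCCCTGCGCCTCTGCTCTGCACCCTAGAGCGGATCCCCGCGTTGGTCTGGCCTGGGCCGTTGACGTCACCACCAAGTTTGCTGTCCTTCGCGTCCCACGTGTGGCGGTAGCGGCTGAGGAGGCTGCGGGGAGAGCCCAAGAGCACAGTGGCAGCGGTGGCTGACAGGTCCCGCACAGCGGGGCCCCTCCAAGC
Hs3st3b1, chr11:63922235-63922534, minus strand: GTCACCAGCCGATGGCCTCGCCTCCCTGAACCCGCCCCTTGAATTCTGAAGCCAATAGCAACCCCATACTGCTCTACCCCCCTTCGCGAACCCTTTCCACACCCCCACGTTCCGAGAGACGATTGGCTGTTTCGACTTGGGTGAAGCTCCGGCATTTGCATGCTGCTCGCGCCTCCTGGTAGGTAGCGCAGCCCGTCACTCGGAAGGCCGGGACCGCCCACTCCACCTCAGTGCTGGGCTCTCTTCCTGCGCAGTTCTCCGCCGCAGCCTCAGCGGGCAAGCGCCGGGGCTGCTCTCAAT
Hs3st4, chr7:123982578-123982877, plus strand: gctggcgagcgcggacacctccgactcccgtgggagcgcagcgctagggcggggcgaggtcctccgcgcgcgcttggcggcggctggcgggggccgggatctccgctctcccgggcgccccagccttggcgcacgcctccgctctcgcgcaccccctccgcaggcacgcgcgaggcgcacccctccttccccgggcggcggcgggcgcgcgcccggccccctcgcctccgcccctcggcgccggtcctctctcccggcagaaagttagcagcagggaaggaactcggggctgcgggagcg
Both Hs3st3 windows lie wholly inside a peak, and the Hs3st4 window holds none, although it has 47 CpG dinucleotides against 23 in each of the other windows. Of the 34 members, 33 had a peak within 1000 bases of an annotated start, the exception being Hs3st4. Among tested members it was 31 of 32, beside 89.2% of all tested fetal genes with an annotated start. Requiring the peak to cover the start base left 28 members, without Sdc3, Ndst1, Ndst4, Hs6st3, Hs3st2 and Hs3st4, and 27 of the 32 tested members beside 81.3% of all tested genes. Peaks inside the gene numbered 29 in Gpc6, 18 in the untested Gpc5 and 8 in the low gene Hs3st4. These genes are long. Gpc6 spans 116925430 to 117976544 and Gpc5 115092250 to 116525179 on chromosome 14, and Hs3st4 spans 123982869 to 124398989 on chromosome 7. Their counts were not compared with the number expected by length from the 71040 peaks of the list, so no excess can be read from them. RefSeq windows were matched for 25 members (30 windows), and 25 of the windows overlapped a peak. The windows without one were both of Ndst3 and those of Gpc4, Hs3st2 and Hs3st4. Ndst3, Gpc4 and Hs3st2 had a peak within 1000 bases of an annotated start all the same. The GC box GGGCGGGGC, searched on both strands, was found in 10 of these 30 windows and in 11% of all 32851 promoter windows. The GLI motif TGGGTGGTC and the palindromic androgen response motif were found in 0 of the 30, and in 0.253% and 0.00913% of all windows. The peak list carries no sample or height, so peaks could not be compared between sexes or ages.

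At E14.5 the sexes differed in few members, and no called difference reached 2-fold. Females were higher in the N-sulfotransferase Ndst3, the glypican Gpc6 and Hspg2, and males in the sulfatases Sulf1 and Sulf2, the 6-O-sulfotransferase Hs6st1 and the glypican Gpc1. With edgeR's quasi-likelihood test and an adjusted p under 0.05 (the threshold throughout), 7 of 32 tested members were called, 3 higher in females and 4 higher in males. The members' share of 21.9% stood beside 6.28% of all 17858 tested genes (2.59% higher in females, 3.69% higher in males). The median of the members' log2 fold changes (female minus male) was 0.05, and that of all genes -0.01.

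Ndst3 measured 14.03, 10.2 and 11.3 CPM in the 3 E14.5 female libraries and 7.19, 7.32 and 8.19 CPM in the males. The groups did not overlap, and the log2 fold change was 0.64 (SE 0.146, adjusted p 0.0148). Sulf1 measured 354, 338 and 323 CPM in females and 528, 426 and 481 CPM in males, so every male library was above every female library. Its log2 fold change was -0.50 (SE 0.0829, adjusted p 0.00172). Hs6st1, per kb the highest of the 6-O-sulfotransferases, measured 34.04, 37.3 and 40.4 CPM in females and 46.7, 54.5 and 48.2 CPM in males. Its log2 fold change was -0.42 (SE 0.0856, adjusted p 0.00732). Gpc6, the glypican whose loss in humans shortens the limbs, measured 137, 124 and 122 CPM in females and 109, 92.5 and 93.5 CPM in males, at 0.38 on the log2 scale (SE 0.105, adjusted p 0.0454). The other called members were Gpc1 at -0.34, Sulf2 at -0.31 and Hspg2 at 0.28. None of the 4 syndecans, 5 chain elongation genes or 5 tested 3-O-sulfotransferases was called at this age in the reported fit.

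The E14.5 count changed when 1 library was left out: 2 members were called without E14.5 female replicate 1, 4 without male replicate 2 and 4 without male replicate 3. Each such fit held fewer libraries, and the 1121 calls over all genes became 578, 687 and 548 in these same fits. Without female replicate 1, Ndst3 (adjusted p 0.102), Hs6st1 (0.0542) and Sulf2 (0.0752) lost their call. Without male replicate 2 Ndst3 did so (0.0664), and without male replicate 3 Sulf2 (0.0758). Gpc6 and Hspg2 lost theirs without any 1 library other than male replicate 1, with adjusted p of 0.0856 to 0.187 for Gpc6 and 0.0978 to 0.163 for Hspg2. Their log2 fold changes in these fits were 0.32 to 0.41 and 0.23 to 0.29. Over all 12 alternatives the highest adjusted p was 0.0152 for Sulf1 and 0.0245 for Gpc1. With library size as the only scaling Hspg2 also lost its call (0.0583). Calls were also gained, all higher in females. Sdc2 was called with DESeq2, the replicate block and without female replicate 2 or male replicate 1 (lowest adjusted p 0.0159). Hs3st3b1 (lowest 0.00879) and Hs3st3a1 (lowest 0.022) were called with the block and with only the 6 libraries compared, Hs3st3b1 also with DESeq2. Gpc4 (0.0447) and Hs2st1 (0.0478) were called in 1 alternative each. The calls of Sulf1 and Gpc1 were kept in every alternative, also without E14.5 female replicate 3, the library with the red blood cell markers.

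**Figure D2:**
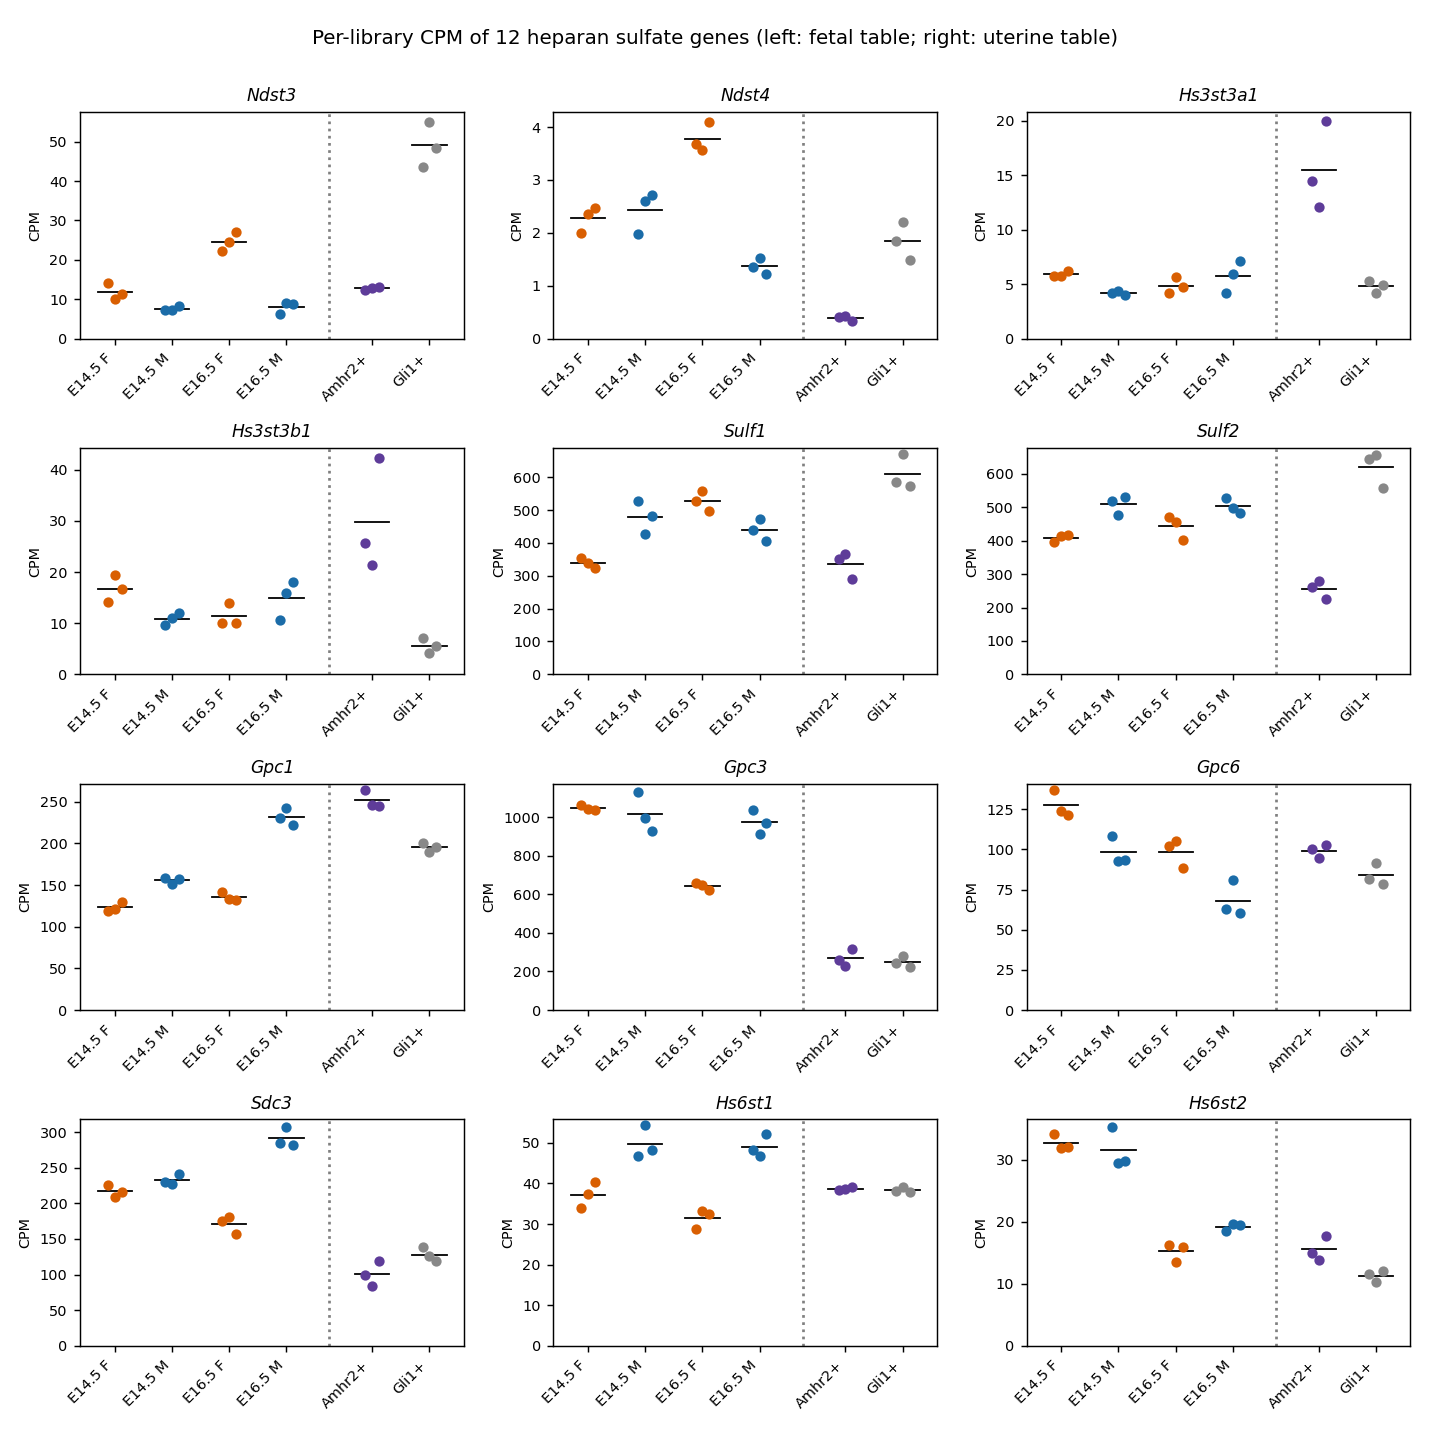
CPM (vertical axes, from 0) of 12 members in each library, by group, with the group mean as a line and the uterine table right of the dotted line. In Ndst3 and Ndst4 the E16.5 female and the uterine Gli1+ points lie above the E16.5 male and Amhr2+ points, while Hs3st3a1 and Hs3st3b1 are highest in Amhr2+ cells.

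By E16.5 the sexes differed in more members and by more. The N-sulfotransferases Ndst3 and Ndst4 were 3.03-fold and 2.77-fold higher in females. Males were higher in the glypicans Gpc1 and Gpc3, the syndecan Sdc3, the 6-O-sulfotransferases Hs6st1 and Hs6st2, and the 3-O-sulfotransferases Hs3st1 and Hs3st4. Females were also higher in the core proteins Gpc4, Gpc6 and Sdc2. A total of 14 of 32 members were called, 6 higher in females and 8 higher in males, which is 43.8% beside 27.3% of all genes (13.2% higher in females and 14.1% higher in males). The members' median log2 fold change was 0.09, and that of all genes 0.01.

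Ndst3 measured 22.2, 24.6 and 27.1 CPM in E16.5 females and 6.37, 9.13 and 8.81 CPM in males. The lowest female library was far above the highest male library, and the log2 fold change was 1.60 (SE 0.141, adjusted p 4.47e-07). Ndst4 was expressed at a lower level, at 3.67, 3.57 and 4.09 CPM in females and 1.36, 1.52 and 1.23 CPM in males. Its groups did not overlap either, and its log2 fold change was 1.47 (SE 0.170, adjusted p 8.22e-06). NDST enzymes carry out the first sulfation step, on which later steps depend. Ndst1 and Ndst2, which made up most of the family's level, had log2 fold changes of -0.07 (SE 0.0765) and 0.11 (SE 0.1004) and were not called. Ndst3 took 6.99% ± 0.990 of the family's CPM per kb in E16.5 females and 2.41% ± 0.524 in males (SD, n = 3).

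Among the 6-O- and 3-O-sulfotransferases on the member list, the 4 called genes were higher in males, whereas Hs3st5, outside that list and described with the related genes, was higher in females. Hs3st4 measured 0.465, 0.788 and 0.834 CPM in females and 1.55, 1.01 and 1.16 CPM in males, from 19 to 72 counts per library, at -0.83 on the log2 scale (SE 0.264, adjusted p 0.0278). Hs3st1, the enzyme that makes the antithrombin-binding site of heparin, differed by -0.73 on the same scale (SE 0.171, adjusted p 0.00445). Hs6st1 had a value of -0.64 and Hs6st2 of -0.33. Neither the epimerase Glce nor Hs2st1 was called, with log2 fold changes of 0.06 (SE 0.0798) and -0.01 (SE 0.0634). Among chain elongation genes Extl3 alone was called, at -0.26. Sulf1, higher in males at E14.5, was higher in females at E16.5, at 0.26 (SE 0.0826, adjusted p 0.0265).

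Among core proteins, Gpc1 measured 142, 133 and 132 CPM in females and 231, 243 and 223 CPM in males. Its log2 fold change was -0.77 (SE 0.0596, adjusted p 1.1e-07). Sdc3, a syndecan best known from nerve and muscle, had a log2 fold change of -0.77 as well, and Gpc3 one of -0.59. The female-higher core proteins were Gpc6 at 0.53, Sdc2 at 0.51 and Gpc4 at 0.49. Gpc3 and Gpc4, neighbours on X, thus differed in opposite directions. Sdc1, Sdc4, Hspg2 and Agrn had values between 0.09 and 0.18 and were not called.

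Same-numbered E16.5 libraries deviated together, and with the replicate number as a block 17 members were called at E16.5, while the calls over all 17858 genes went from 4883 to 5901. The additions were Hspg2 at 0.18 (adjusted p 0.0281, against 0.0888 without the block), Hs3st3b1 at -0.38 (0.0445 against 0.143) and Sulf2 at -0.18 (0.0283 against 0.0663). Of the 14 calls, 4 were lost in fits that left out 1 library and so held fewer libraries. Hs3st4 lost its call without E16.5 female replicate 1 (adjusted p 0.127) or male replicate 1 (0.0836), Hs6st2 without female replicate 2 (0.0675), and Extl3 without female replicate 3 (0.079) or male replicate 2 (0.0742). Fitting only the 6 E16.5 libraries also lost Hs3st4 (0.0751) and Extl3 (0.0611). Sulf1 lost its call without female replicate 1 (0.0656), female replicate 2 (0.117) or male replicate 3 (0.145). Over the alternatives the lowest adjusted p was 0.0256 for Hs3st4, 0.00422 for Hs6st2, 0.00196 for Extl3 and 0.00429 for Sulf1. Markers of smooth muscle moved with sex at this age: the sum of 6 markers was 465 to 567 CPM in female and 1716 to 2893 CPM in male libraries, and 5 of the 6 were called higher in males, Myh11 at a log2 fold change of -4.35. At E14.5 the sums were 302 to 326 CPM in females and 607 to 888 CPM in males. Of the 7 immune markers, 5 were called higher in E16.5 females, with sums of 30.8 to 76.5 against 13.2 to 47.4 CPM. Mesothelium markers were called lower in E16.5 females in 3 of 5, with sums of 19.6 to 44.1 against 43.2 to 59.4 CPM. Mesenchyme markers were called in 6 of 8, 3 in each direction, and tested endothelial markers in 4 of 7, 2 in each direction. Gonad somatic markers were called lower in females in 2 of 5 tested, epithelial in 1 of 8 and germ cell in 1 of 2 tested. Gli1 itself was 48.5 to 54.0 CPM in E16.5 female and 194 to 220.2 CPM in E16.5 male libraries. The part of these cell types and of the Gli1 level in the members' differences was not tested.

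**Figure D3:**
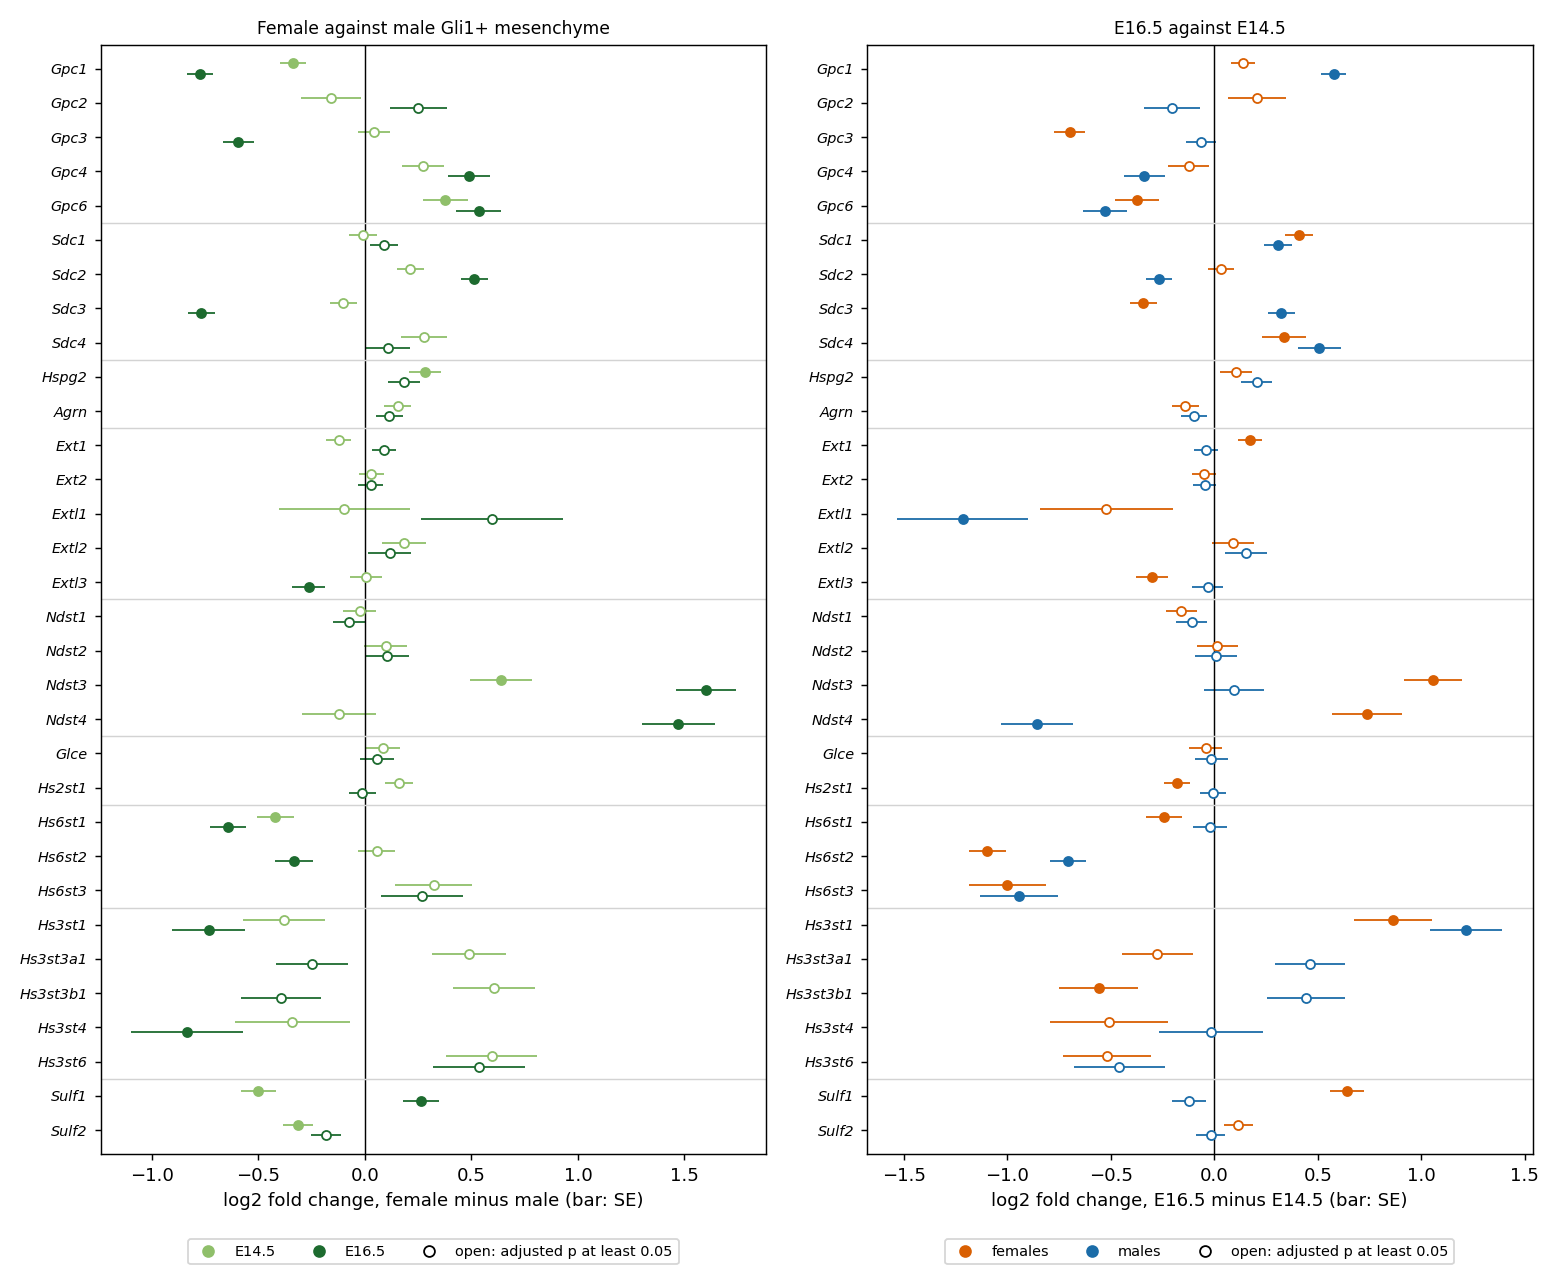
Log2 fold changes of the 32 tested members between the sexes (left, female minus male, at each age) and between the ages (right, E16.5 minus E14.5, in each sex), with SE bars and filled points where the adjusted p was under 0.05. Ndst3 and Ndst4 stand apart at E16.5 with values of 1.60 and 1.47, and Hs6st2 and Hs6st3 fell in both sexes.

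From E14.5 to E16.5, the 6-O-sulfotransferases Hs6st2 and Hs6st3 fell and the 3-O-sulfotransferase Hs3st1 rose in both sexes, while Ndst3, Ndst4 and Sulf1 rose in females. In females 16 of 32 members were called, 7 higher and 9 lower at E16.5, which is 50% beside 39.6% of all genes (21.0% higher, 18.6% lower). In males 12 were called, 5 higher and 7 lower, which is 37.5% beside 23.3% (13.1% higher, 10.2% lower). For all genes in males, scaling by library size alone turned the split from 2340 higher and 1828 lower to 1847 higher and 2641 lower, while the members' split stayed at 5 and 7. In females that scaling turned the split of all genes from 3746 higher and 3322 lower to 3130 and 3924. The members' split in females went from 7 and 9 to 6 and 11, with 15 of the 16 calls shared. The comparisons of age and sex share their libraries, so their values are given side by side only.

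Hs6st2 measured 34.04, 31.9 and 32.0 CPM in E14.5 females and 16.3, 13.6 and 15.9 CPM in E16.5 females. The log2 fold change was -1.10 (SE 0.0891, adjusted p 1.62e-07) with no overlap, and in males it was -0.71 (SE 0.0872, adjusted p 1.95e-05). Hs6st3 fell from 3.84, 3.30 and 3.40 CPM to 1.74, 2.14 and 1.39 CPM in females, and from 2.95, 3.03 and 2.51 CPM to 1.43, 1.71 and 1.28 CPM in males. Its log2 fold changes were -1.001 (SE 0.187, adjusted p 0.000637) and -0.95 (SE 0.187, adjusted p 0.0016). Hs6st1 thereby made up 51.8% ± 3.28 of the family's CPM per kb in E14.5 females and 65.5% ± 2.58 in E16.5 females (SD, n = 3), although its own level fell in females, at -0.24. The share was 61.2% ± 3.38 in E14.5 males and 72.7% ± 1.94 in E16.5 males.

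Hs3st1 rose from 2.57, 2.19 and 2.43 CPM to 4.11, 4.78 and 4.22 CPM in females (log2 fold change 0.86, SE 0.189, adjusted p 0.00215). In males it rose from 2.27, 3.47 and 3.46 CPM to 8.57, 5.71 and 7.48 CPM (1.22, SE 0.175, adjusted p 9.67e-05). The groups did not overlap in either sex. Hs3st3b1 fell in females, at -0.56, whereas its value in males was 0.44 and was not called. Ndst3 in females rose from 14.03, 10.2 and 11.3 CPM to 22.2, 24.6 and 27.1 CPM, a change of 1.06 on the log2 scale (SE 0.140, adjusted p 2.9e-05), and in males its value was 0.09 (SE 0.145). Ndst4 rose in females, at 0.74, and fell in males from 1.98, 2.61 and 2.72 CPM to 1.36, 1.52 and 1.23 CPM, at -0.86 (SE 0.174, adjusted p 0.00189). Extl1, an EXT-like glycosyltransferase with low counts, fell in males from 0.673, 0.892 and 0.938 CPM to 0.412, 0.240 and 0.420 CPM, at -1.22 (SE 0.317, adjusted p 0.0111). Sulf1 rose in females at 0.64 and had a value of -0.12 in males.

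The change with age differed by sex, in the interaction test given with its values further on, for 4 of the 11 tested core proteins, Gpc1, Gpc3, Sdc2 and Sdc3. Gpc3 fell in females, from 1061, 1042 and 1038 CPM to 660, 650 and 624 CPM, at -0.70 (SE 0.0745, adjusted p 3.01e-06), and in males its value was -0.06. Gpc1 rose in males, at 0.58, and had a value of 0.14 in females. Sdc3 fell in females, at -0.34, and rose in males, at 0.32. Sdc1, the syndecan typical of epithelia, rose in both sexes, at 0.41 in females and 0.31 in males, and so did Sdc4, at 0.34 and 0.51. Gpc6 fell in both, at -0.37 and -0.53. Sdc2 and Gpc4 fell in males, at -0.27 and -0.34, and the interaction was not called for Gpc4 (adjusted p 0.39).

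Some of the smaller changes of age lost their call when 1 library was left out. Each such fit held fewer libraries. Over all genes the 7068 calls in females became 5249 to 6464 in these fits. Gpc4 in males lost its call without E14.5 male replicate 1 (adjusted p 0.0866), E14.5 male replicate 2 (0.0521) or E16.5 male replicate 3 (-0.22, 0.108). In females Ext1 and Hs2st1, at 0.17 and -0.18, lost theirs without any 1 of 5 libraries, with adjusted p of 0.0624 to 0.0879 and 0.0657 to 0.13. Their log2 fold changes in those 5 fits were 0.16 to 0.18 and -0.19 to -0.14. Only leaving out E16.5 female replicate 1 kept both. Hs3st3b1 lost its call without E14.5 female replicate 2 or 3 or E16.5 female replicate 1 or 3 (0.0706 to 0.122). Sdc4 did so without E14.5 female replicate 1 or 2 or E16.5 female replicate 2 or 3 (0.0548 to 0.103). Hs6st1 did so without E14.5 female replicate 2 or 3 or E16.5 female replicate 1 (0.0831 to 0.159), and Gpc6 without E14.5 female replicate 1 (0.0554). With no filter on low counts Hs2st1 (0.129), Hs6st1 (0.0607) and Hs3st3b1 (0.104) lost their calls in females, and library size as the only scaling ended that of Ext1 (0.107). With the replicate block Ext1 (0.0821) and Hs2st1 (0.0786) lost theirs, and Gpc4 in males did so in the fit of only the 6 male libraries (0.0762).

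Markers of other cell types moved with age. All 6 smooth muscle markers were called higher at E16.5 in males, and in females 3 were called higher and 1 lower. Of the 7 immune markers, 5 were called higher in females and 3 in males, none lower, although their summed level overlapped between the ages, at 59.1 to 68.0 and 30.8 to 76.5 CPM in females and 42.4 to 58.5 and 13.2 to 47.4 CPM in males. Of the 5 tested markers of gonad somatic cells, 4 were called lower and 1 higher in females, and 2 lower and 1 higher in males. Their sums were 44.6 to 46.8 and 45.6 to 51.6 CPM in females and 47.5 to 55.7 and 63.6 to 71.4 CPM in males. The part of these markers in the members' changes with age was not tested.

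The change of the sex difference between the ages was tested as an interaction, the female minus male log2 difference at E16.5 less that at E14.5. A total of 8 members were called, 4 in each direction, which is 25.0% beside 10.0% of all genes (4.66% positive, 5.36% negative). The positive members were Ndst4 at 1.59 (SE 0.243, adjusted p 0.000442), Ndst3 at 0.96 (SE 0.201, adjusted p 0.00523), Sulf1 at 0.76 (SE 0.117, adjusted p 0.00047) and Sdc2 at 0.30. The sex difference of Ndst4 was thus -0.12 at E14.5 and 1.47 at E16.5. The negative members were Hs3st3b1 at -1.001 (SE 0.268, adjusted p 0.0295), Sdc3 at -0.67, Gpc3 at -0.64 and Gpc1 at -0.44. Hs3st3b1 measured 14.2, 19.4 and 16.7 CPM in E14.5 females and 9.68, 11.1 and 12.01 CPM in males of that age. The E16.5 libraries had 10.1, 13.9 and 10.004 CPM in females and 10.6, 15.9 and 18.1 CPM in males. The order of the sexes thus turned, although neither sex difference was called on its own in the reported fit. At E14.5 Hs3st3b1 was called with DESeq2, the replicate block and only the 6 libraries compared (lowest adjusted p 0.00879). At E16.5 it was called with the block and without male replicate 1 (lowest 0.00909). Its interaction call was lost without any 1 of 8 of the 12 libraries (adjusted p 0.0614 to 0.0769), the exceptions being E14.5 female replicate 1, E14.5 male replicate 3 and, at E16.5, female replicate 2 and male replicate 1. The Sdc2 call was lost without any 1 library other than E14.5 female replicate 1 or E14.5 male replicate 2 (0.052 to 0.136). The Sdc2 call was also lost with RLE scaling (0.0603) and with no filter on low counts (0.0731), and that of Hs3st3b1 with no such filter (0.09).

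In the neonatal uterus, the members with the largest differences between Amhr2+ and Gli1+ cells were 3-O- and N-sulfotransferases. Amhr2+ cells were 5.29-fold higher in Hs3st3b1 and 3.22-fold higher in Hs3st3a1, which add 3-O-sulfates of the kind bound by herpes simplex glycoprotein D. Gli1+ cells were 3.84-fold higher in Ndst3 and 2.43-fold higher in Sulf2. A total of 18 of 32 tested members were called, 8 higher in Amhr2+ and 10 higher in Gli1+ cells, which is 56.2% beside 23.9% of all 16195 tested genes (10.1% higher in Amhr2+, 13.7% higher in Gli1+). With scaling by library size alone, 11 members were higher in Amhr2+ and 7 in Gli1+ cells, and all genes split into 2849 and 1640 in place of 1642 and 2224. That scaling ended the calls of Hspg2 (-0.14, adjusted p 0.164), Ext2 (-0.15, 0.0972) and Hs2st1 (-0.12, 0.13), and 15 of the 18 calls were shared. The median log2 fold change (Amhr2+ minus Gli1+) was -0.04 for the members and 0.00 for all genes (-0.00168), and the median of absolute values was 0.34 against 0.22.

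Hs3st3b1 measured 25.8, 21.3 and 42.3 CPM in Amhr2+ libraries and 7.18, 4.12 and 5.55 CPM in Gli1+ libraries. The Amhr2+ libraries varied among themselves, but all were above the Gli1+ libraries, and the log2 fold change was 2.40 (SE 0.306, adjusted p 0.00199). Over the 11 alternatives the value for Hs3st3b1 ranged from 2.07 to 2.62 and stayed called. Hs3st3a1 measured 14.47, 12.1 and 19.9998 CPM against 5.33, 4.21 and 4.88 CPM, at 1.69 on the log2 scale (SE 0.196, adjusted p 0.000644). Amhr2+ replicate 3 was the highest library for both genes, which share the coding run printed above. Hs3st4, with 36 to 50 counts in Amhr2+ and 9 to 17 in Gli1+ libraries, stood at 1.59 on the log2 scale (SE 0.326, adjusted p 0.00991), and Hs3st1 at 0.76. Thus 4 of the 5 tested 3-O-sulfotransferases on the member list were higher in Amhr2+ cells, and Hs3st6 was not called at 0.22 (SE 0.318). Hs3st5, outside that list and described with the related genes, was lower in Amhr2+ cells. Within the family's CPM per kb, Hs3st3b1 took 48.6% ± 3.87 in Amhr2+ and 29.9% ± 5.03 in Gli1+ cells, while Hs3st3a1 took 32.2% ± 0.844 and 32.3% ± 0.485 (SD, n = 3).

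Ndst3 measured 12.2, 12.9 and 13.2 CPM in Amhr2+ and 43.7, 55.0 and 48.5 CPM in Gli1+ cells, at -1.94 on the log2 scale (SE 0.0988, adjusted p 1.02e-05). The Amhr2+ libraries lay close together, far under every Gli1+ library. Ndst4, at 10 to 16 counts in Amhr2+ and 49 to 71 in Gli1+ libraries, followed with -2.20 (SE 0.268, adjusted p 0.000817). Ndst1 and Ndst2 were not called, at -0.18 (SE 0.0754) and -0.37 (SE 0.129). Sulf2 measured 261, 280 and 224 CPM in Amhr2+ and 645, 656 and 558 CPM in Gli1+ cells, at -1.28 on the log2 scale (SE 0.0981, adjusted p 8.37e-05). Sulf1 measured 352, 366 and 289 CPM against 585, 670 and 574 CPM, with -0.86 (SE 0.101, adjusted p 0.000682). Both sulfatases were thus lower in each Amhr2+ library than in any Gli1+ library, and their summed level was 73.1 ± 8.40 against 160 ± 12.7 CPM per kb.

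Called differences in other roles followed. Extl1 was higher in Amhr2+ cells at 1.27, from under 3 CPM in both populations, and the remaining elongation genes Ext1 (-0.31), Ext2 (-0.23) and Extl2 (-0.34) were higher in Gli1+ cells. Hs6st2 was higher in Amhr2+ cells at 0.46, and Hs2st1 lower at -0.21. Hs6st1 had a log2 fold change of 0.01 (SE 0.0605). Among core proteins, Gpc1 (0.37) and Gpc6 (0.24) were higher in Amhr2+ cells and Sdc2 (-0.43) and Hspg2 (-0.22) lower. Gpc3, so different between the sexes at E16.5, had a value of 0.11 (SE 0.126) and was not called.

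Leaving out Amhr2+ replicate 1 lowered the uterine count to 10 members and leaving out Gli1+ replicate 1 to 12. Without Amhr2+ replicate 1 the calls of Gpc6, Hspg2, Ext1, Ext2, Extl2, Hs2st1, Hs6st2 and Hs3st1 were lost, with adjusted p of 0.0631 to 0.142. Without Gli1+ replicate 1 those of Gpc6, Hspg2, Ext1, Ext2, Hs2st1, Hs6st2 and Hs3st1 were lost (0.0536 to 0.128). Each other library removed between 2 and 5 of these same calls (0.0506 to 0.127). With no filter on low counts Hspg2 (0.0598) and Hs2st1 (0.0828) lost theirs. The calls of Hs3st3a1, Hs3st3b1, Hs3st4, Ndst3, Ndst4, Sulf1, Sulf2, Extl1, Gpc1 and Sdc2 were kept in all 11 alternatives. The populations also differed in cell type markers. The 8 mesenchyme markers summed to 27089 to 28934 CPM in Amhr2+ and 56182 to 63405 CPM in Gli1+ libraries, with 6 of 8 called lower in Amhr2+ cells, among them Dcn at -1.54. The epithelial markers summed to 71.7 to 73.7 against 31.9 to 43.4 CPM, with 4 of the 7 tested called higher in Amhr2+ cells. The smooth muscle markers summed to 1122 to 1769 against 2121 to 2340 CPM, with 2 of the 6 called, both lower in Amhr2+ cells. Of 7 tested endothelial markers 3 were called, all lower, with sums of 30.7 to 36.0 against 42.3 to 52.0 CPM. All 3 tested red blood cell markers were called lower (sums of 1.75 to 2.54 against 7.84 to 8.67 CPM). Of 4 tested gonad somatic markers 1 was called higher, and of 3 tested neural and glial markers 1 lower. The part of these differences in the members' values was not tested.

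**Figure D4:**
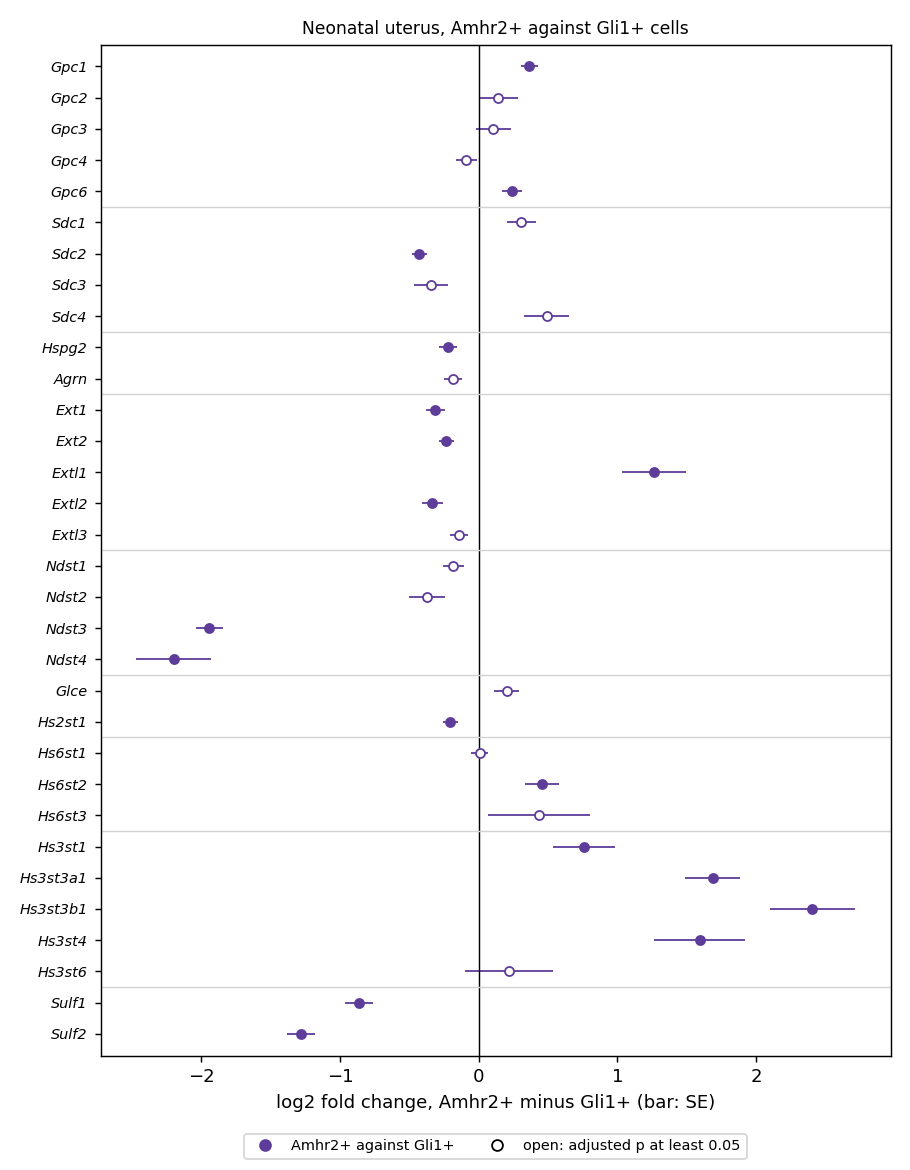
Log2 fold changes (Amhr2+ minus Gli1+ cells of the neonatal uterus, horizontal axis) of the 32 tested members with SE bars, ordered by role, filled where the adjusted p was under 0.05. The 3-O-sulfotransferases on the member list, which leaves out Hs3st5, lie on the right, Hs3st3b1 at 2.40. Ndst3, Ndst4, Sulf1 and Sulf2 lie on the left.

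Genes around the pathway were read from fixed lists, and their counts stand beside 27.3% of all genes called at E16.5 and 23.9% in the uterus. Of 14 genes for the protein linker and for precursor supply, 4 were called between the sexes at E16.5 (28.6%, 1 higher in females, 3 in males) and 6 in the uterus (42.9%, 1 higher in Amhr2+, 5 in Gli1+). The E16.5 share was near that of all genes. Papss2, which makes the sulfate donor of all sulfotransferases, was higher in E16.5 males at -1.24 (SE 0.111, adjusted p 5.59e-07). It measured 27.0, 24.2 and 20.8 CPM in E16.5 females and 48.6, 62.2 and 58.9 CPM in males. In the uterus it was higher in Gli1+ cells at -1.20 (adjusted p 0.000175). Pxylp1, the phosphatase of the linker xylose, was higher in E16.5 females at 0.71, and the initiating xylosyltransferase Xylt1 was lower in Amhr2+ cells at -0.56.

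Of 10 genes of heparan sulfate breakdown, 3 were called between the sexes at E16.5 (30%, near the share of all genes, 2 higher in females, 1 in males), with the heparanase Hpse at -0.65 and the lysosomal iduronidase Idua at 0.23. In the uterus 4 of 10 were called (40%), all lower in Amhr2+ cells, including Naglu at -0.48 and Hpse2, a heparanase relative without heparanase activity, at -3.21 with values of at most 0.588 CPM. Of 15 tested genes of the chondroitin and dermatan sulfate branch, which shares the linker, 5 were called at E16.5 (33.3%, 4 higher in females, 1 in males), again close to all genes. Chst11 had a log2 fold change of 0.67 and Chsy3 of 0.53. In the uterus 9 of 15 were called (60%), 8 of them lower in Amhr2+ cells. Chsy3, a chondroitin polymerase, measured 4.72, 5.56 and 3.80 CPM in Amhr2+ and 13.6, 14.1 and 13.8 CPM in Gli1+ cells, at -1.55 (adjusted p 0.000237), whereas the sulfotransferase Chst15 was higher in Amhr2+ cells at 0.89.

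Of 6 other carriers and related genes, 4 were called at E16.5, 2 in each direction, and 5 in the uterus, 1 higher and 4 lower in Amhr2+ cells. Hs3st5, a further 3-O-sulfotransferase, measured 1.54, 1.58 and 1.59 CPM in E16.5 females and 0.339, 0.214 and 0.372 CPM in males, at 2.30 (SE 0.315, adjusted p 4.79e-05). In the uterus it was lower in Amhr2+ cells, at -0.98 (adjusted p 0.0206), so it differed in the opposite direction to Hs3st1, Hs3st3a1, Hs3st3b1 and Hs3st4 there. Col18a1, a basement membrane collagen with heparan sulfate chains, was higher in E16.5 males at -0.62. Cd44, whose splice forms can carry the chain, was lower in Amhr2+ cells at -1.90 (adjusted p 1.42e-05).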

How the data were processed

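Raw read counts per gene were deposited by the authors as 2 tables, 12 fetal and 6 uterine libraries. The submitters' processing notes name STAR 2.5, Subread 1.5.0-p1 with featureCounts, Bowtie 1.2, MACS2 2.1.1, SAMtools 1.3.1, bedtools 2.24.0 and Picard, and the build mm10. They assign no role to a tool, and the annotation and strand used in counting are not given in the sources used here. Per the labels' protocols, fetal libraries used a non-stranded and uterine libraries a stranded kit. The peak list holds positions only, as deposited by the authors.

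Groups came from sample titles. Each table was fitted over all its genes with edgeR 4.0.16 in R 4.3.3 (filterByExpr, TMM, robust quasi-likelihood test, Benjamini-Hochberg adjustment, threshold 0.05), the 4 fetal groups in 1 model. The SE is the absolute log2 fold change divided by the root of F. The fit was also run on simulated counts with the same dispersion for every gene and no pairing of replicates. That setting differs from these data, so the run does not bear on the calls given here. Levels per kb use the summed exons of GENCODE vM21, which need not be the annotation the counts were made with. Alternatives were RLE scaling, library size only, no filter, DESeq2 1.42.0, a replicate block, only the 6 libraries compared, and leaving out each library.

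The members and lists were chosen with earlier results of these data known. Any member may be named. Values per library are given for called members whose absolute log2 fold change was 1 or more and whose higher group averaged 5 CPM or more, or, where fewer than 4 met this, for the called members with the largest change, up to 4; other members given per library were added after their values were seen. Of the pathway lists the 2 called genes with the largest change at E16.5 and in the uterus are named. Same-numbered E16.5 libraries of the 2 sexes correlated in their deviations from the group means (lowest r 0.15). At E14.5 this r was 0.08 to 0.16, above that of every differently numbered pair. This pairing comes from the data and from no label.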

Additional observations from a re-analysis of the deposited data

Results flagged for a closer look

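A direct test of whether the sex difference changed between E14.5 and E16.5 (edgeR interaction term, female minus male at E16.5 less that at E14.5, log2 scale) called 8 members. The values were 1.59 for Ndst4, 0.96 for Ndst3, 0.76 for Sulf1 and 0.30 for Sdc2. They were -1.001 for Hs3st3b1, -0.67 for Sdc3, -0.64 for Gpc3 and -0.44 for Gpc1. In Sulf1 the sex difference had opposite signs at the 2 ages, -0.50 and 0.26, and in Ndst3 the same sign, 0.64 and 1.60. Of the 6 smooth muscle markers 3 were called in the same interaction, Myh11 at -2.49, and their part in these values was not tested.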

How the results depend on the processing

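No call of a member reversed under any alternative run. Leaving out 1 library gave 2 (without female replicate 1) to 9 (without male replicate 1) called members between the sexes at E14.5 and 10 to 18 in the uterus, with fewer samples in each such fit. The calls kept in every alternative were 2 of 7 for sex at E14.5, 10 of 14 for sex at E16.5, 10 of 16 and 11 of 12 for age in females and males, 6 of 8 for the interaction and 10 of 18 in the uterus. Between the sexes at E14.5 the same-number r was 0.08 to 0.16, above every different-number r (at most 0). At E16.5 it was 0.15 to 0.54, and female replicate 2 with male replicate 1 reached 0.24. Between the ages the lowest same-number r was -0.07 in females and -0.17 in males, and in the uterus it was 0.02. With the replicate block, 10, 17, 14, 13, 11 and 21 members were called. These counts are for sex at E14.5, sex at E16.5, age in females, age in males, the interaction and the uterus. They stand beside 1581, 5901, 6255, 3463, 2592 and 4725 of all genes. DESeq2 called 9, 15, 16, 14, 10 and 22 members in the same order, and 1436, 5019, 7108, 4347, 2184 and 4294 of all genes. The reported fits called 1121, 4883, 7068, 4168, 1790 and 3866 of all genes. Library size as the only scaling moved the median log2 fold change of all uterine genes by 0.083. Over all genes, the 1121 calls between the sexes at E14.5 became 578, 656 and 652 without female replicate 1, 2 or 3, and 1698, 687 and 548 without male replicate 1, 2 or 3. The 1790 of the interaction became 2696 without E16.5 male replicate 1, and the 3866 of the uterus 1921 without Amhr2+ replicate 1 and 2502 without Gli1+ replicate 1. Low counts limit Extl1, with 9 to 31 per E16.5 library, and Hs3st4.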
